A study of Rattus norvegicus with 8 samples.

Results

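Insulin and PI 3-kinase pathway regulators were examined as 8 genes: Pik3ip1, Irs1, Irs2, Sgk1, Insr, Foxo1, Foxo3 and Akt1. They were chosen by symbol, and all 16 probe sets annotated with only 1 of these symbols were taken, out of 31142 probe sets and 13810 gene symbols on 2 chips. Earlier results of the same forskolin comparison were known when the 8 genes were chosen, so their differences, intervals and calls are given as a description, with no p-value, and are not independent evidence. RNA came from PC12, a rat pheochromocytoma line that makes and stores catecholamines, either with forskolin or without it. The sample labels spell the agent foreskolin, and the series title calls the comparison sample an inactive control. Forskolin, a diterpene from a plant, switches on adenylyl cyclase and so raises cyclic AMP. Each of 2 chips, A and B, carried 2 arrays with forskolin and 2 without, numbered replicate 1 and replicate 2. The sources used here give no dose, no time of exposure, no nature of the control and no culture medium, so whether insulin or serum was present is not known. Nothing in the labels ties the replicates to separate cultures, so p-values measure only the spread between these arrays, which may be technical.

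Insulin and related growth factors bind receptor tyrosine kinases such as the insulin receptor, which phosphorylate adaptor proteins, among them Irs1 and Irs2. The adaptors recruit PI 3-kinase, a lipid kinase whose product draws Akt to the membrane and allows it and the related kinase Sgk1 to be activated. Akt holds the transcription factors Foxo1 and Foxo3 out of the nucleus, while Pik3ip1, a transmembrane protein, binds PI 3-kinase and inhibits it. In PC12 cells this pathway is known for carrying survival signals from nerve growth factor. An array measures messenger RNA and says nothing of protein phosphorylation or location.

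Both chips were read as log2 expression values deposited by the authors, 1 per probe set and array, and the medians of the 4 arrays of a chip lay within 0.021 (chip A) and 0.025 (chip B) of each other. Brightness differs between probe sets for reasons of probe chemistry, so no probe set's level is set against another's. The known cyclic AMP responders Fos, Nr4a1, Dusp1 and Crem were 1.84-fold to 16.4-fold higher on the forskolin arrays of chip A, each on its tested probe set with the smallest p. Of 9 chromaffin cell markers 5 (Th, Chga, Chgb, Ddc and Ngfr) were bright enough to be tested, while Dbh and Slc18a1 fell below the brightness filter. Of 5 fibroblast markers 3 passed it (Col1a1, Col3a1 and Dcn), as did Gfap of 4 glial, Cyp11a1 of 5 adrenal cortex and Cd68 of 4 blood and endothelial markers. None of these 11 tested markers was called changed with forskolin by limma. At an unadjusted p under 0.05, 4 of them (Chga, Chgb, Th and Col1a1) were higher with forskolin, and any part of such markers in the results was not tested. A gene was counted here if any of its tested probe sets passed. Col1a1 measured 0.14 (log2) on the probe set that passed and 0.05 on its other one (limma unadjusted p = 0.37). The share of all tested probe sets under that unadjusted threshold was not counted, so these 4 are not read as an excess.

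The 8 genes split into 3 that differed with forskolin and 5 that did not pass the threshold or were too dim to test. Irs2 was higher, and Pik3ip1 and Sgk1 were lower. At an adjusted p under 0.05, limma's fit of chip A called 1 of their 9 tested probe sets higher and 2 lower. Of all 11106 probe sets tested on that chip 3.3% were called, 2.03% higher and 1.26% lower. Of the calls on chip A 61.7% were higher, against 59.7% with quantile normalization, 52.0% with median centring, 77.6% with the replicate number as a block and 54.7% to 71.9% with 1 array left out. Since earlier results of this comparison were known when the genes were picked, nothing is read from that contrast of shares. The 6 uncalled probe sets tested on chip A differed by -0.004 to 0.10 (log2). In RNA from whole cultures, fewer cells of a type and less RNA per cell cannot be told apart.

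**Figure D1:**
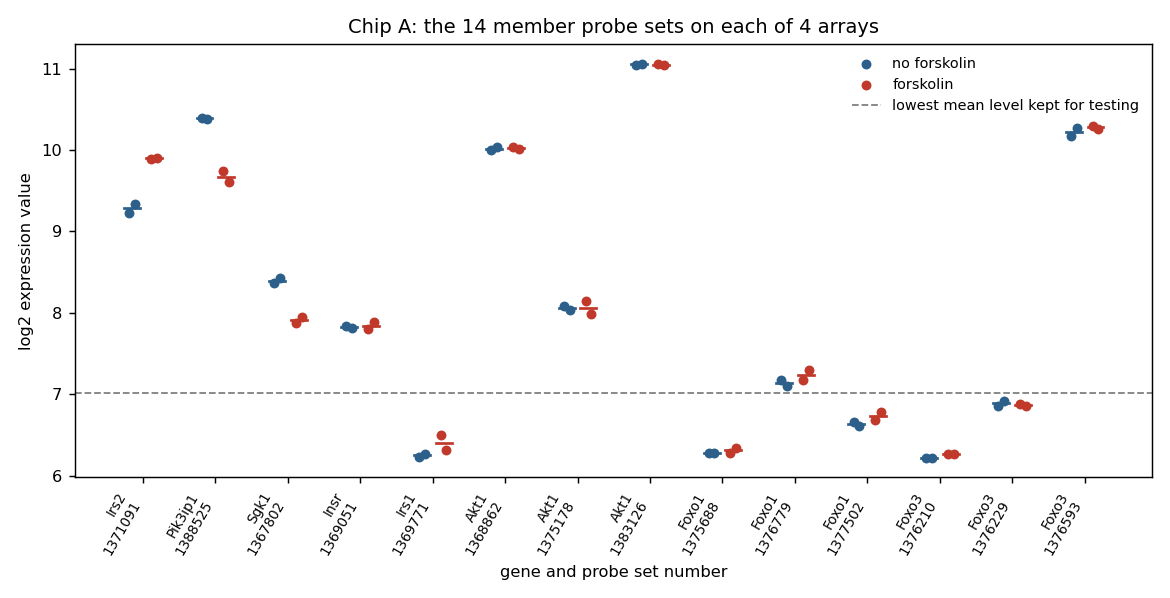
Log2 expression values (vertical axis) of the 14 probe sets of the 8 genes on chip A, with each point 1 array, each short bar a group mean of 2 arrays, and the dashed line the lowest mean level kept for testing. Irs2 sits higher with forskolin, Pik3ip1 and Sgk1 sit lower, and the 3 Akt1 probe sets are level; heights of different probe sets are not comparable.

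Irs2, an adaptor that couples insulin and insulin-like growth factor receptors to PI 3-kinase, measured 9.22 and 9.34 (log2) on the arrays without forskolin and 9.89 and 9.91 on the arrays with it. Both forskolin arrays lay above both others, as in 20.4% of all probe sets tested on chip A. They did so by far more than the gap between replicates. The group means were 9.28 ± 0.08 and 9.90 ± 0.01 (SD, n = 2). The difference was 0.62 ± 0.047 (log2, SE), or 1.53-fold higher with forskolin. Irs2 is known in pancreatic beta cells as a gene that cyclic AMP induces through CREB. It had 1 probe set, on chip A, so no second probe set checks this value.

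Pik3ip1, the inhibitor of PI 3-kinase among the 8 genes, measured 10.40 and 10.38 (log2) without forskolin and 9.74 and 9.61 with it on chip A. The groups did not overlap, with the forskolin arrays lower, as in 28.0% of all probe sets tested on chip A. The forskolin arrays differed more from each other than the arrays without forskolin did. The means were 10.39 ± 0.01 and 9.68 ± 0.09 (SD, n = 2), a difference of -0.71 ± 0.047 (log2, SE), or 1.64-fold lower. A second probe set on chip B measured 6.09 and 5.99 without forskolin and 5.97 and 5.92 with it. Its mean level lay below the brightness filter of that chip (6.02), so it was not tested. Its difference of -0.09 (log2) had the same sign and was much smaller than on chip A.

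Sgk1, a kinase related to Akt that also phosphorylates Foxo3 and that glucocorticoids are known to induce, measured 8.36 and 8.43 (log2) without forskolin and 7.88 and 7.95 with it. Again the groups did not overlap, with the forskolin arrays lower, as in 28.0% of all probe sets tested on chip A. The means were 8.40 ± 0.05 and 7.92 ± 0.05 (SD, n = 2), and the difference was -0.48 ± 0.049 (log2, SE), or 1.39-fold lower. This gene was measured by 1 probe set, on chip A. The calls of Irs2, Pik3ip1 and Sgk1 were each made in all 10 alternative settings that touch chip A, including each array left out in turn. Their differences ranged from 0.56 to 0.68 for Irs2, from -0.78 to -0.65 for Pik3ip1 and from -0.52 to -0.44 for Sgk1 (log2).

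**Figure D2:**
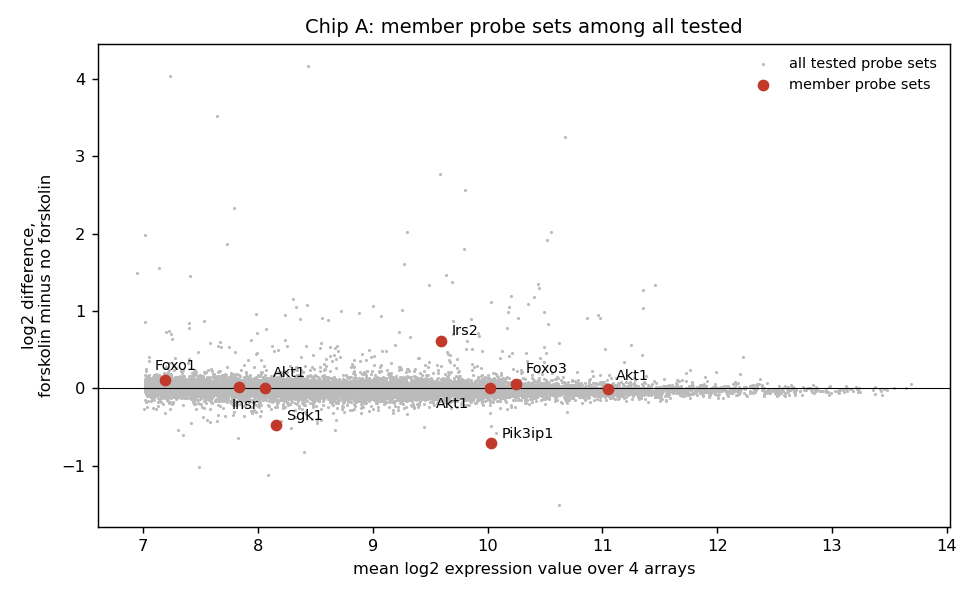
Log2 difference, forskolin minus no forskolin (vertical axis), against mean log2 expression value over 4 arrays (horizontal axis) for the 11106 probe sets tested on chip A, in grey, with the 9 probe sets of the 8 genes in red. Irs2 (0.62), Sgk1 (-0.48) and Pik3ip1 (-0.71) lie outside the grey band around 0, and the Akt1, Foxo1, Foxo3 and Insr points lie within it.

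The receptor was not called, and the other adaptor was too dim to test. Insr, the insulin receptor, measured 7.84 and 7.82 (log2) without forskolin and 7.80 and 7.88 with it on chip A. These values interleave, and the difference was 0.01 ± 0.049 (SE) with a 95% interval of -0.10 to 0.12. Its sign turned without forskolin replicate 2 (-0.03). On chip B its other probe set measured 5.89 and 6.08 without forskolin and 6.15 and 6.18 with it. Its mean without forskolin (5.98) lay below the brightness filter of that chip (6.02), and its mean with forskolin (6.17) above it. It was thus tested only through its forskolin arrays. Both forskolin arrays of this probe set were higher, yet the difference of 0.18 ± 0.099 (SE) had a 95% interval of -0.05 to 0.42. It was not called, on a chip where 0.159% of 10693 tested probe sets were. That difference was 0.09 without no forskolin replicate 1 and 0.28 without no forskolin replicate 2. The 2 groups failed to overlap in 32.7% of the tested probe sets of chip B. Irs1, the adaptor most like Irs2 in its role, measured 6.23 and 6.27 without forskolin and 6.50 and 6.32 with it. It lay below the filter of chip A (7.02) and was not tested, and its difference of 0.16 rested mainly on 1 of the forskolin arrays.

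Akt1, the central kinase of the pathway, was measured by 3 probe sets, all tested. The brightest read 11.05 and 11.06 (log2) without forskolin and 11.06 and 11.04 with it. A further probe set read 10.00 and 10.03 without and 10.03 and 10.01 with forskolin, and the dimmest read 8.08 and 8.04 against 8.14 and 7.98. The groups overlapped in all 3, and the differences were -0.004, 0.007 and 0.00. Their 95% intervals were -0.08 to 0.07, -0.08 to 0.09 and -0.134 to 0.135, so a change of the size seen in Irs2 or Sgk1 lies outside the interval of each.

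Foxo1 and Foxo3, the forkhead factors that Akt restrains, had 3 probe sets each on chip A, of which 1 each was bright enough to test. The tested Foxo1 probe set measured 7.17 and 7.11 (log2) without forskolin and 7.18 and 7.30 with it, a difference of 0.10 ± 0.058 (SE) with an interval of -0.03 to 0.23. Leaving out forskolin replicate 2 gave 0.04, and leaving out forskolin replicate 1 gave 0.16. Its dim probe sets differed by 0.04 and 0.10 in the same direction, and the groups did not overlap in any of the 3. Groups without overlap were common on this chip, in 48.5% of its tested probe sets, 20.4% higher and 28.0% lower. The tested Foxo3 probe set measured 10.17 and 10.27 without forskolin and 10.30 and 10.26 with it, and the groups overlapped. Its difference was 0.06 ± 0.043 (SE), with an interval of -0.04 to 0.16, and the dim Foxo3 probe sets differed by 0.05 and -0.02. The value of the tested one was 0.007 without no forskolin replicate 1 and 0.11 without no forskolin replicate 2. Neither factor was called in any setting run.

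Promoter windows of the 8 genes were searched for letters tied to cyclic AMP and to forkhead factors. RefSeq windows (rat, GRCr8) from 250 bases before to 50 after a start were found for 6 of the 8 genes, 8 windows in all, 3 of them of Sgk1. Irs2 and Foxo3 were not matched. The letters were the full cyclic AMP response element TGACGTCA, its half-site TGACG (which the full element contains), the forkhead letters GTAAACA and the insulin response sequence CAAAACA, each on both strands. Of 33469 windows in the table, 1.83% held the full element, 21.2% the half-site, 3.78% the forkhead letters and 6.28% the insulin response sequence. None of the 8 windows held the full element, 1 held the half-site, 2 the forkhead letters and 1 the insulin response sequence. The 3 windows with a match are shown 5′ to 3′ along the gene, with matches in capitals. Pik3ip1 (chr14:82428065-82428364, plus strand) has the forkhead letters, read on the opposite strand, from position 1 at the annotated start. Insr (chr12:6128754-6129053, minus strand) has the half-site from position -113 and the forkhead letters on the opposite strand from -100. Sgk1 (chr1:24805521-24805820, minus strand) has the insulin response sequence on the opposite strand from -9 in 1 of its 3 windows.
Pik3ip1: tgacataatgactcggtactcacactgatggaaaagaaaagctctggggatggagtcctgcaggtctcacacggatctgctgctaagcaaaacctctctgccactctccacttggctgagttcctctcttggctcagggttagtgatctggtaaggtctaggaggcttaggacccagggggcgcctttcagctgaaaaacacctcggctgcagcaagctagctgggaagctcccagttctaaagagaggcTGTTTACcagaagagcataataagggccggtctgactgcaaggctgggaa
Insr: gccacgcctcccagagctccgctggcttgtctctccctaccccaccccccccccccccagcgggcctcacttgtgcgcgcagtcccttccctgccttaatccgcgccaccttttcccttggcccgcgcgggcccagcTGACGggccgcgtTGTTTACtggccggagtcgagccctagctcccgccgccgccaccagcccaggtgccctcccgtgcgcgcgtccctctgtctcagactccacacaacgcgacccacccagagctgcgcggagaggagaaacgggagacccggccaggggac
Sgk1: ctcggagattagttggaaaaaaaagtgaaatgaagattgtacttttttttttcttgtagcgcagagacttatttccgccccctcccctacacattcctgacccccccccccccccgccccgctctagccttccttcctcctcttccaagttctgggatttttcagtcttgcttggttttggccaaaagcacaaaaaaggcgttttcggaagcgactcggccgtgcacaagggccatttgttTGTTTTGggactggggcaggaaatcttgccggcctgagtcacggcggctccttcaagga
The forkhead letters thus stand in the window of a gene that was lower (Pik3ip1) and in that of a gene that was not called (Insr). A match is a run of letters and was not tested for binding.

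The comparison of inhibitors with positive components used wider lists of the pathway, in which a gene is read from the brightest of its probe sets tested on chip A, or of those on chip B where chip A gave none. By that rule 15 of the 18 tested inhibitors and 28 of the 30 tested positive components were read on chip A, where 3.3% of all tested probe sets were called, and the others on chip B, where 0.159% were. Of 25 listed inhibitors 18 were tested, and 1 was higher, 3 were lower and 14 were not called by limma. Without Pik3ip1 the count was 1 higher and 2 lower of 17, and 6 of those 17 had an unadjusted p under 0.05. Of 37 listed positive components 30 were tested, and 2 were higher, 1 was lower and 27 were not called. Without the 5 positive genes among the 8, the count was 1 higher and none lower of 26, and 3 of those 26 had an unadjusted p under 0.05. How many of all tested probe sets fell under that unadjusted threshold was not counted, so neither unadjusted count is read as an excess. The median difference was 0.01 (log2) for the 18 inhibitors and 0.03 for the 30 positive components, against -0.01 over all probe sets tested on chip A and -0.03 on chip B. Called genes of both lists lay on both sides of 0. The difference between the lists was not tested. Both lists, and the 2 lists of Akt substrates and FOXO targets below, were written with earlier results of these data known. Their counts, calls and p-values are therefore a description and not independent evidence.

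**Figure D3:**
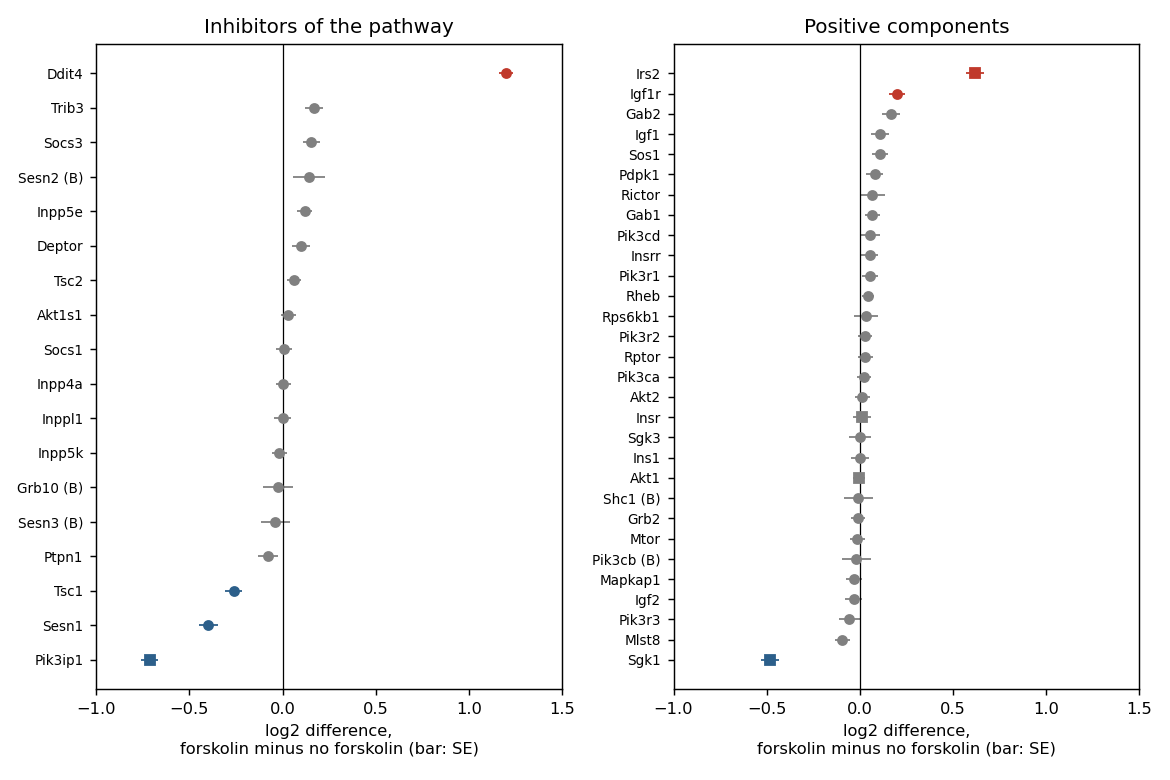
Log2 difference, forskolin minus no forskolin (horizontal axis, bars are SE, n = 2 arrays per group), for the tested inhibitors (left) and positive components (right), with (B) marking genes measured on chip B. Squares are genes among the 8, red is called higher, blue called lower and grey not called; Ddit4 stands at 1.20 and Pik3ip1 at -0.71 on the left, Irs2 at 0.62 and Sgk1 at -0.48 on the right.

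Inhibitors that act on PI 3-kinase or its lipid products held 1 call. Of 5 tested genes in that class it was that of Pik3ip1, and the other 4 (Inpp5e, Inpp5k, Inppl1 and Inpp4a, all phosphatases of inositol lipids) ran from -0.02 to 0.12 (log2). Inpp5e had the smallest p of these (0.12 ± 0.040, SE, limma adjusted p = 0.180). None of 4 tested inhibitors of the receptor was called by limma, nor was Trib3, the 1 tested inhibitor of Akt, and 1 of those 4 and Trib3 had an unadjusted p under 0.05. No share of all tested probe sets at that unadjusted threshold was counted to set beside this. At the adjusted threshold 3.3% of all tested probe sets were called on chip A and 0.159% on chip B. Socs3, which blocks cytokine and insulin receptor signalling, measured 0.15 (limma adjusted p = 0.131), and Trib3, a pseudokinase that binds Akt, measured 0.17 (0.120).

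The other called inhibitors were all genes that restrain the growth kinase complex mTORC1, and they moved in both directions. Ddit4, which acts through the Tsc1 and Tsc2 proteins, measured 9.59 and 9.62 (log2) without forskolin and 10.83 and 10.78 with it. It rose by 1.20 ± 0.037 (SE), or 2.30-fold (limma adjusted p = 3.77e-07). Sesn1, a sestrin that senses amino acids and stress, measured 8.69 and 8.65 without forskolin and 8.21 and 8.33 with it. It fell 1.32-fold (limma adjusted p = 0.00393), and its probe set on chip B measured -0.295 without a call (adjusted p = 0.919). Tsc1, a subunit of the complex that switches off Rheb, disagreed between its probe sets. The brighter one fell by 0.26 (limma adjusted p = 0.0166), while the dimmer one measured 0.10 (0.350). The call of Tsc1 was lost without forskolin replicate 2 and with the replicate number as a block, with adjusted p from 0.00519 to 0.0834 over all settings. Tsc2 itself measured 0.06 and was not called.

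Among positive components outside the 8 genes, 1 call was made. Igf1r, the receptor for insulin-like growth factors, measured 9.01 and 9.08 (log2) without forskolin and 9.23 and 9.26 with it on chip A. It rose by 0.20 ± 0.043 (SE), or 1.15-fold (limma adjusted p = 0.0457), while its probe set on chip B measured 0.02 with an interval of -0.19 to 0.22. That call was lost in 6 of 10 settings, among them leaving out forskolin replicate 1, forskolin replicate 2 or no forskolin replicate 1, and its adjusted p ran from 0.0155 to 0.166. The 6 tested PI 3-kinase subunits ran from -0.06 to 0.06 and none was called by limma, nor did any have an unadjusted p under 0.05. Of 12 tested kinases and mTOR complex genes, Sgk1 was the only call, and the other 11 ran between -0.09 (Mlst8, limma adjusted p = 0.294) and 0.08 (Pdpk1). All 12 and 5 of the 6 subunits were read on chip A, where 3.3% of all tested probe sets were called, against 0.159% on chip B. With shares that low, few calls in such small classes are not read as a result about them. The share under the unadjusted threshold was not counted. The adaptors Gab2 and Sos1 measured 0.17 (limma adjusted p = 0.132) and 0.11 (0.251).

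Downstream of Akt, the proteins it restrains showed no call at the RNA level. None of 9 tested genes, Foxo1 and Foxo3 included, was called by limma, and none had an unadjusted p under 0.05. Of the 9, 8 were read on chip A, where 3.3% of all tested probe sets were called, against 0.159% on chip B. With shares that low, the lack of a call is not read as a result about these genes. The share under the unadjusted threshold was not counted. The smallest p-values outside the 8 genes were those of Gsk3b (0.15 ± 0.067, SE, limma adjusted p = 0.294), a kinase that inhibits glycogen synthase, Tbc1d4 on chip B (-0.16, 0.977), which controls glucose transporter traffic, and Foxo4 (0.05, 0.560). Gsk3b measured 0.05 without forskolin replicate 2 and 0.25 without forskolin replicate 1 (limma adjusted p = 0.730 and 0.0749). The median of the 9 was -0.005 (log2).

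The last list held genes known from other cells as targets of FOXO factors. Of 22 listed genes 15 were tested, and 4 fell, 1 rose and 10 were not called, with a median of -0.04 (log2). All but 1 of the 15 were read on chip A, where 3.3% of tested probe sets were called, 2.03% higher and 1.26% lower. Txnip, which inhibits thioredoxin and glucose uptake, fell from 11.34 and 11.41 to 9.85 and 9.88, or 2.84-fold (limma adjusted p = 1.07e-07). Gadd45a, a growth arrest gene, fell from 8.14 and 8.15 to 7.57 and 7.43, or 1.57-fold (limma adjusted p = 2.52e-04). Ccng2, an unusual cyclin linked to cell cycle exit, fell 1.19-fold (limma adjusted p = 0.0201), and Gabarapl1, an autophagy gene, 1.17-fold (0.0207). Both of these smaller calls were lost without forskolin replicate 1, without forskolin replicate 2, without no forskolin replicate 2 and with the replicate number as a block, which leaves 3 called genes of the 15. The Gabarapl1 probe set on chip B measured -0.08 without a call (adjusted p = 1.0, limma). Over all settings the adjusted p of the chip A probe sets ran up to 0.0749 for Ccng2 and 0.0836 for Gabarapl1. Cited2, a coregulator that binds CBP and p300, went the other way on both of its probe sets, by 0.89 and 1.02 (log2; the larger adjusted p was 9.40e-06, limma). Bcl2l11 (0.08, limma adjusted p = 0.297), Pck1 (-0.09, 0.460) and Bnip3 (0.05, 0.476) were the nearest to a call among the rest. The list was written with earlier results of these data known, among them the falls of Txnip and Gadd45a. Its counts, p-values and direction are therefore a description.

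**Figure D4:**
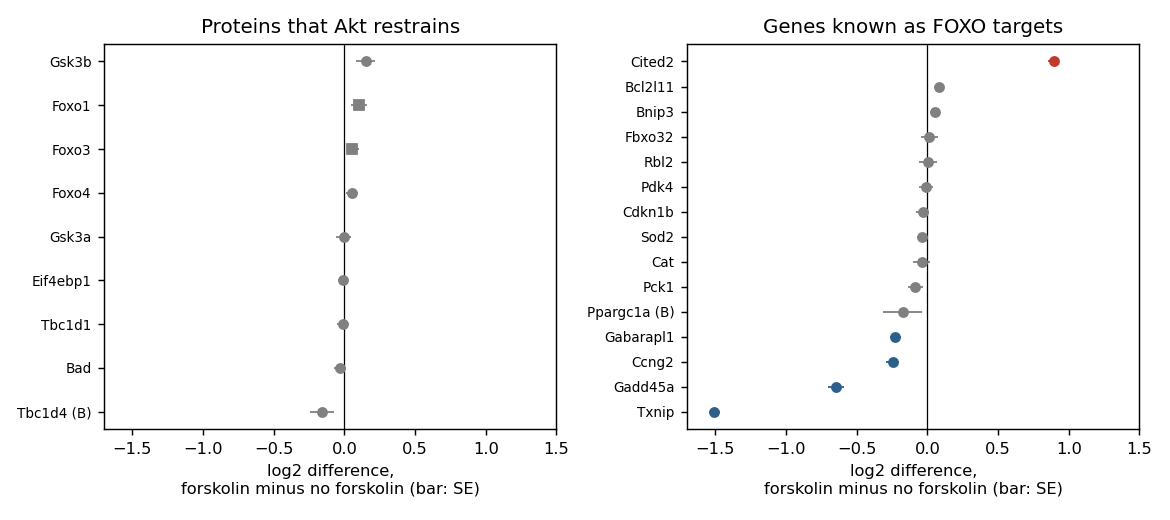
Log2 difference, forskolin minus no forskolin (horizontal axis, bars are SE, n = 2 arrays per group), for proteins that Akt restrains (left) and genes known as FOXO targets (right), with (B) marking genes measured on chip B and squares marking Foxo1 and Foxo3. All genes on the left are grey (not called), while on the right Txnip (-1.51), Gadd45a (-0.65), Ccng2 and Gabarapl1 are blue (called lower) and Cited2 (0.89) is red (called higher).

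The genes whose values ran closest to the called genes were found by the Euclidean distance of log2 values, each centred on its mean over the 4 arrays of chip A. For Pik3ip1 they were Gadd45a at a distance of 0.07, LOC100912167 at 0.20 and Filip1l at 0.25. Gadd45a had a similar difference (-0.65, log2) and, like Pik3ip1, its lower forskolin value on replicate 2. For Sgk1 they were Rsrp1 at 0.04, Filip1l at 0.08 and Tsr2 at 0.08, with differences of -0.50, -0.48 and -0.43 (log2). For Irs2 they were Fosl2, a Fos-related AP-1 subunit, at 0.07, Smad1, which carries BMP signals, at 0.08 and Zfp36, which binds and destabilises messenger RNAs, at 0.08, with differences of 0.58, 0.54 and 0.54. With 4 arrays in 2 groups, such a distance mostly measures how alike the forskolin differences are.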

How the data were processed

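The authors deposited a table of log2 expression values for each chip, with 1 value for each probe set on each array. The background correction, the summary of probes and the scaling they used were not given in the sources used here. Base 2 was inferred from the range: read as natural logarithms, 3063 values of chip A and 115 of chip B would pass the limit of the scanner, and read as base 2 none does. The authors' scaling was kept, since array medians lay within 0.1. No detection calls were used, so background could not be checked. Gene symbols came from GEO's platform annotation, updated by Entrez number to RefSeq (GRCr8), where 12748 of 12783 single-symbol probe sets matched on chip A, and 7524 of 7564 did on chip B.

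A brightness filter removed probe sets whose mean linear value was under the 30th percentile for their chip, so that 11106 of 15866 (chip A) and 10693 of 15276 (chip B) were tested. Each chip was fitted alone with limma 3.58.1 in R 4.3.3 (lmFit, eBayes with an intensity trend, two-sided, Benjamini-Hochberg over the chip, threshold 0.05). The median SE was 0.045 for chip A and 0.089 for chip B, and having 2 arrays per group limits the precision on both. The fit was tested on simulated data. The 8 genes and all lists were chosen with earlier results of these data known. Named pathway genes are those called on a tested probe set and, per list, the 3 uncalled ones with the smallest p. Likeness used the 3 nearest genes each for Pik3ip1, Sgk1 and Irs2. Alternatives were quantile normalization, median centring, no filter, a filter at the 50th percentile, no trend, a replicate block, each array left out, and another probe set per gene.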

Additional observations from a re-analysis of the deposited data

How the results depend on the processing

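The count of called probe sets of the 8 genes was 3 under every alternative run, 10 of which touch chip A, where all 3 lie. Leaving out an array of chip B could not change these 3 calls, nor those of list genes read on chip A. The counts for inhibitors (4), positive components (3) and proteins that Akt restrains (0) stayed within 1.5 times their values under all alternatives, with 3 to 4, 2 to 3 and 0 when 1 array was left out. Called FOXO targets numbered 5, but 3 with the replicate block, and 3 to 5 when 1 array was left out. On chip A, 366 probe sets were called, against 577 with median centring, 205 with the replicate block and 250 to 437 with 1 array left out. On chip B, 17 were called, against 30 with quantile normalization and 9 to 84 with 1 array left out (9 without forskolin replicate 2, 84 without no forskolin replicate 1 and 54 without no forskolin replicate 2). The cause of these shifts was not tested. List medians near 0 changed sign in some settings: that of the inhibitors ranged from -0.008 (without forskolin replicate 2 of chip A) to 0.05 (log2). That of the proteins that Akt restrains ranged from -0.008 to 0.07 and was above 0 with quantile normalization and when any 1 array of chip A was left out, while the positive components stayed above 0 and the FOXO targets below it. The replicate numbers are not stated to pair arrays. Deviations of same-numbered arrays from their group means correlated at 0.0034 on chip A and 0.197 on chip B across tested probe sets. Where an array was left out, its group had 1 array, which is assumed to vary like the others. Irs1 and 5 further probe sets of the 8 genes lay below the filter, and how far such values lie above background is not known.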
